A study of Rattus norvegicus with 9 samples.

Results

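The ETS transcription factor genes Etv1, Etv4, Etv5, Ets1 and Ets2 were followed in cultures of primary Schwann cells (glia that ensheathe the axons of peripheral nerves) from rat sciatic nerve. Members were all probe sets that the array's annotation pairs with exactly 1 of these 5 genes, which gave 11 of the 31042 probe sets tested: 5 for Etv1, 2 each for Etv4 and Etv5, and 1 each for Ets1 and Ets2. Cells of the first group, NF1 RNAi + U0126, received oligonucleotides against Nf1 and the MEK inhibitor U0126. Those of the NF1 RNAi group received the Nf1 oligonucleotides alone, and those of the Control RNAi group received scrambled oligonucleotides. Total RNA was taken 48 hours after transient transfection in all groups, with 3 independent biological replicates and 1 array each, 9 arrays in all. U0126 in control cells was not analysed here, so the inhibitor's effect was measured only in cells with Nf1 knocked down. Nf1 encodes neurofibromin, which switches Ras off, and MEK is the kinase that activates ERK. The knockdown was transient and in bulk cultures.

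ETS factors share a winged-helix DNA-binding domain that recognises a GGAA core. Etv1, Etv4 and Etv5 form the PEA3 subfamily, whose transcription is induced by receptor tyrosine kinases through Ras, MEK and ERK, in part by removal of the repressor Capicua. Ets1 and Ets2 are close paralogues of each other, and ERK phosphorylates both proteins next to their Pointed domain, which recruits the coactivators encoded by Crebbp and Ep300. In rat peripheral ganglia Etv5, also called Erm, is known from satellite glia, where neuregulin maintains it. Because ERK acts on Ets1 and Ets2 as proteins, their mRNA levels do not report that step.

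The arrays were alike in overall signal, with median intensities of 94.6 to 96.7, as the authors' normalisation makes them. Nf1, on 1 probe set, had log2 values of 5.39 to 5.72 in NF1 RNAi + U0126 cells and 5.39 to 5.44 in NF1 RNAi cells, against 6.15 to 6.65 in Control RNAi cells, so the targeted transcript was lower wherever its oligonucleotides were given. Control RNAi replicate 1 stood apart from its group: the SD of its log2 differences was 0.31 and 0.358 to the other control arrays, against 0.152 between those. Of 10 Schwann cell markers 8 were measured, and Sox10 (log2 11.06 to 11.47) and S100b (13.08 to 14.05) were high on every array. Several of the 8, S100b among them, did not hold their level across groups. In NF1 RNAi against Control RNAi 3 of the 8 fell (log2 differences L1cam −2.04, Pmp22 −1.96 and Egr2 −1.02) and S100b rose by 0.79. In NF1 RNAi + U0126 against NF1 RNAi 5 fell (L1cam −1.65, Gfap −1.29, Erbb3 −1.08, Egr2 −0.56 and S100b −0.38) and none rose. In NF1 RNAi + U0126 against Control RNAi 5 fell, with differences between −0.22 (Sox10) and −3.69 (L1cam), and S100b rose by 0.42. These values are from the brightest probe set of each gene. The other Egr2 probe set was called in none of these comparisons (−0.08, −0.05 and −0.13, in that order). The summed intensities of the 8 were 27259 to 28591 in NF1 RNAi + U0126, 30274 to 32701 in NF1 RNAi and 26541 to 33020 in Control RNAi cells. All 5 measured endothelial markers were below log2 6 on all arrays, with summed intensities of 140 to 150 in NF1 RNAi + U0126, 131 to 135 in NF1 RNAi and 128 to 140 in Control RNAi cells. Of 6 leukocyte markers 4 were below log2 6 on all arrays. The sums of all 6 were 307 to 361, 258 to 273 and 240 to 264 in the same order. Cd68 was the only one of the 6 called. It was higher in NF1 RNAi + U0126 than in NF1 RNAi (0.90, limma adjusted p = 0.00166) and Control RNAi cells (1.07, limma adjusted p = 0.000188). Of 6 fibroblast markers Dcn, Lum and Pdgfra were below log2 6 on all arrays. The sums of the 6, carried by the collagen genes Col1a1 and Col3a1, were 10416 to 15897, 14918 to 15847 and 20712 to 22733. The part of such cells, and of the shifts in Schwann cell markers, in the results below was not tested. In bulk cultures, fewer cells that express a gene and less of its RNA per cell cannot be told apart.

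Etv1, Etv4 and the second Etv5 probe set lay at the low end of the array in all groups, whereas Ets1 and Ets2 were well above it. Values are log2(intensity + 1), for which the median over all probe sets and arrays was 6.60. The 8 dim probe sets stayed below log2 6 on all 9 arrays. The Etv1 probe sets ran from 2.99 to 4.82, at percentiles 0.113 to 23.4 of all probe sets on an array. Those of Etv4 ran from 3.82 to 4.77, at percentiles 7.69 to 22.2. At this level signal not due to the transcript can make up much of the value, so expression of Etv1 and Etv4 was not shown, nor was its absence. Ets1 lay at percentiles 95.3 to 97.9 and Ets2 at 68.2 to 76.5.

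Etv5 was the member that varied most, by 3.28 on the log2 scale over the 9 arrays, against 0.79 or less for each of the other 10 probe sets. Its promoter window is shown because the brighter Etv5 probe set had its own lowest values with the MEK inhibitor. The window holds the 250 bases before the start that RefSeq's promoter table uses and 50 bases from that start on. It lies at chr11:92113013-92113312 on the plus strand of GRCr8. That start lies 92 bases from the start in the RefSeq gene table. Capitals mark the GGAA core, searched on both strands.
Etv5: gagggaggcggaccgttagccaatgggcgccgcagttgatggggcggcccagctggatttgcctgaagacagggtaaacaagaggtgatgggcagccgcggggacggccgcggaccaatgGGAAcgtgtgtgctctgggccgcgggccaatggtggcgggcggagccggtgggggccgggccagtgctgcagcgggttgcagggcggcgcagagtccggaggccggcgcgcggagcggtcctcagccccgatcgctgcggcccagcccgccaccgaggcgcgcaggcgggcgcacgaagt
The only GGAA lies 130 bases before the start. At least 1 GGAA is held by 95.8% of all 33469 promoter windows of this length, so a match is no sign of a particular link to ETS factors. The window was 73.3% G or C, against a median of 51.7% over all windows. The octamers TGAATGAA and TGAATGGA, which Capicua binds, were not found there, nor were CCGGAAG (a fuller ETS site), TGAGTCA (an AP-1 site) and TGACGTCA (a cyclic AMP response element). They were in 1.39%, 1.31%, 8.75%, 4.63% and 1.83% of all windows, in that order.

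On its brighter probe set, 1383447_at, Etv5 had intensities of 26.3, 24.8 and 28.1 in NF1 RNAi + U0126 cells, 82.8, 83.0 and 66.9 in NF1 RNAi cells, and 250, 71.0 and 59.0 in Control RNAi cells. Every inhibitor-treated array was below every other array, while NF1 RNAi and Control RNAi overlapped. Mean log2 levels were 4.78 ± 0.09, 6.29 ± 0.18 and 6.68 ± 1.12 (SD, n = 3 each, same order), the large last SD coming from Control RNAi replicate 1. The inhibitor-treated arrays lay at percentiles 20.5 to 23.7 of all probe sets, so the differences from them may understate the change.

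Relative to Control RNAi cells, Etv5 fell by 1.91 ± 0.44 on the log2 scale in NF1 RNAi + U0126 cells (± standard error of the limma fit here and below; adjusted p = 0.00989, Benjamini-Hochberg over all probe sets). The difference was −1.26 ± 0.12 without Control RNAi replicate 1 (adjusted p = 9.8e-05 in limma). The inhibitor's own comparison, NF1 RNAi + U0126 against NF1 RNAi, gave −1.51 ± 0.44, a ratio of 0.35, and an adjusted p of 0.0625 in limma, which missed the threshold of 0.05. Same-numbered arrays differed by −1.62, −1.70 and −1.22. The standard error there is shared by all groups and includes the spread of the control arrays. With the same difference, the adjusted p was 0.0325 with the replicates as a block, 0.000257 in a limma fit of only these 2 groups and 6e-05 without Control RNAi replicate 1. It was 0.0482 in limma with only probe sets kept that reached log2 6 in at least 3 arrays. Etv5 passed that filter only through arrays without the inhibitor, so that setting gives no separate support. The limma adjusted p was 0.0423 without Control RNAi replicate 3 and 0.182 without NF1 RNAi replicate 2. The call of Etv5 in this comparison therefore depended on the setting, although the difference itself stayed between −1.62 and −1.14.

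With Nf1 knockdown alone no change of Etv5 was detected. NF1 RNAi minus Control RNAi was −0.39 ± 0.44 (95% interval −1.38 to 0.59, limma adjusted p = 0.613). Without Control RNAi replicate 1 it was 0.25 ± 0.12 (limma adjusted p = 0.193), so the sign of this difference was that array's. Against the other 2 control arrays, same-numbered NF1 RNAi arrays were higher by 0.22 and 0.18. The 95% interval without that array was −0.02 to 0.52, with its lower bound just below 0.

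The dimmer Etv5 probe set, 1382122_at, did not share these differences. Its intensities were 29.0, 32.1 and 27.7 in NF1 RNAi + U0126 cells, 27.8, 29.1 and 31.3 in NF1 RNAi cells, and 29.1, 32.5 and 25.6 in Control RNAi cells. All groups overlapped, and its differences were between 0.01 and 0.03 in the 3 comparisons (standard error 0.10). It lay at percentiles 22.7 to 27.2 of all probe sets on every array. Control RNAi replicate 1, whose 1383447_at value was the highest of all, was not the highest array here.

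**Figure D1:**
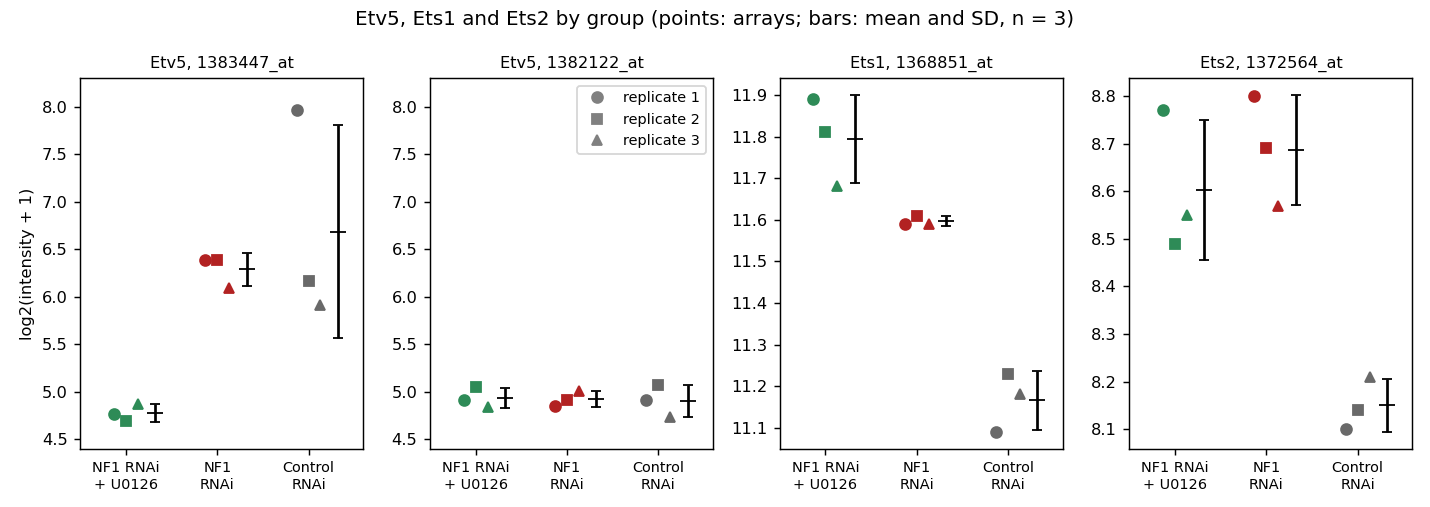
The y axis gives log2(intensity + 1) for both Etv5 probe sets (on 1 shared scale), Ets1 and Ets2 (each on its own scale); points are arrays, with a shape for each replicate number, and bars are the mean and SD of 3 arrays. Etv5 on 1383447_at is below 5 in every NF1 RNAi + U0126 array and is highest, at 7.97, in Control RNAi replicate 1, while Ets1 and Ets2 are higher in every array that received Nf1 oligonucleotides than in every Control RNAi array.

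Ets1, the founding member of the family, rose with Nf1 knockdown, both with and without the inhibitor. Its intensities were 3784, 3578 and 3276 in NF1 RNAi + U0126 cells, 3084, 3115 and 3092 in NF1 RNAi cells, and 2182, 2404 and 2318 in Control RNAi cells. The 3 groups did not overlap. Ets1 rose by 0.43 ± 0.07 in NF1 RNAi cells relative to Control RNAi cells (ratio 1.35, limma adjusted p = 0.00264) and by 0.62 ± 0.07 in NF1 RNAi + U0126 cells (ratio 1.54, limma adjusted p = 0.000204). The step between NF1 RNAi + U0126 and NF1 RNAi was 0.19 ± 0.07 (95% interval 0.04 to 0.35), with an adjusted p of 0.131 in limma. Same-numbered arrays of these 2 groups differed by 0.30, 0.20 and 0.08, all in the same direction, but the test across all probe sets did not call it.

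Ets2, whose paralogue is Ets1, also rose with Nf1 knockdown. Its promoter window is shown beside that of Etv5, because the 2 genes moved differently with the inhibitor. It lies at chr11:48490807-48491106 on the plus strand of GRCr8 in RefSeq's promoter table, with the GGAA core (TTCC on the other strand) in capitals.
Ets2: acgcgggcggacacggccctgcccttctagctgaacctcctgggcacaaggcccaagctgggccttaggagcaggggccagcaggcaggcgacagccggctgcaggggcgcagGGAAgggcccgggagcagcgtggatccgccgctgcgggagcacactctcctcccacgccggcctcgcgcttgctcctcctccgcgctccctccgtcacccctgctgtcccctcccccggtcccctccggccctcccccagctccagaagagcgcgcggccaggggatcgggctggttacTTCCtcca
One GGAA lies 137 bases before the start. The other, on the minus strand, begins at base 43, counting the start as the first base. Windows with at least as many made up 84.5% of all. The window was 73.0% G or C, and it held none of the 5 longer motifs searched in the Etv5 window.

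Ets2 intensities were 437, 359 and 373 in NF1 RNAi + U0126 cells, 445, 411 and 378 in NF1 RNAi cells, and 274, 282 and 295 in Control RNAi cells. Both groups with Nf1 knocked down lay above the control arrays and overlapped each other. Ets2 rose by 0.53 ± 0.09 in NF1 RNAi cells (ratio 1.45, limma adjusted p = 0.00334) and by 0.45 ± 0.09 in NF1 RNAi + U0126 cells (ratio 1.37, limma adjusted p = 0.00503), both relative to Control RNAi cells. These 2 comparisons share the control arrays. The difference between NF1 RNAi + U0126 and NF1 RNAi was −0.08 ± 0.09 (95% interval −0.29 to 0.12, limma adjusted p = 0.677). The rise with knockdown alone, 0.53, is itself an estimate (95% interval 0.33 to 0.74) and shares the NF1 RNAi arrays with that difference. How much of the rise the inhibitor reversed was not tested. Ets1 and Ets2 kept both calls in every one of the 19 alternative settings.

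Etv4, the PEA3 gene itself, showed no called difference. On its brighter probe set, 1386739_at, intensities were 22.6, 22.1 and 22.7 in NF1 RNAi + U0126 cells, 22.0, 20.6 and 21.9 in NF1 RNAi cells, and 26.3, 23.3 and 20.8 in Control RNAi cells. On the other, 1380168_at, they were 13.6, 13.2 and 13.3, then 13.6, 13.8 and 13.1, and then 21.9, 13.9 and 13.9 in the same order. Control RNAi replicate 1 was again the highest array on both probe sets, as it was for Etv5. On 1380168_at every array with Nf1 knocked down lay below every control array, by little for replicates 2 and 3. The log2 differences of Etv4 lay between −0.25 and 0.06 over both probe sets and the 3 comparisons, with limma adjusted p from 0.235 to 0.98.

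Etv1, the remaining PEA3 gene, was called in no comparison on any of its 5 probe sets. Its brightest, 1392477_at, had intensities of 16.5, 21.2 and 18.6 in NF1 RNAi + U0126 cells, 27.2, 21.9 and 23.8 in NF1 RNAi cells, and 22.2, 15.8 and 18.8 in Control RNAi cells. The NF1 RNAi arrays were above all inhibitor-treated arrays and overlapped the control arrays. NF1 RNAi + U0126 minus NF1 RNAi was −0.36 ± 0.13 (limma adjusted p = 0.144), and NF1 RNAi minus Control RNAi was 0.35 ± 0.13 (limma adjusted p = 0.102). The second of these passed without Control RNAi replicate 1 (0.47, limma adjusted p = 0.0305). The other 4 probe sets of Etv1 differed by −0.18 to 0.08 over the 3 comparisons, and none of them was called.

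Counted over the 11 probe sets, 2 were called as higher in NF1 RNAi than in Control RNAi (Ets1 and Ets2), where 20.4% of all probe sets were called in either direction and 10.6% as higher and 9.84% as lower. With the inhibitor, 3 were called against Control RNAi (Ets1 and Ets2 higher, Etv5 lower), where 28.1% of all were (14.2% higher and 13.9% lower). In NF1 RNAi + U0126 against NF1 RNAi, limma called none of the 11, where 10.0% of all were called (4.45% higher and 5.58% lower). At an unadjusted p under 0.05, 3 were different there, namely Etv5, Ets1 and 1392477_at of Etv1, where 22.4% of all probe sets were. The arrays of the 2 groups did not overlap in 3 of the 11 with NF1 RNAi against Control RNAi (35.3% of all probe sets), in 4 with NF1 RNAi + U0126 against NF1 RNAi (28.6%) and in 4 with NF1 RNAi + U0126 against Control RNAi (41.0%). These shares are near the background, so the counts alone do not set the ETS factors apart. Only 3 members, the brighter Etv5 probe set, Ets1 and Ets2, reached log2 6 in 3 or more arrays.

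**Figure D2:**
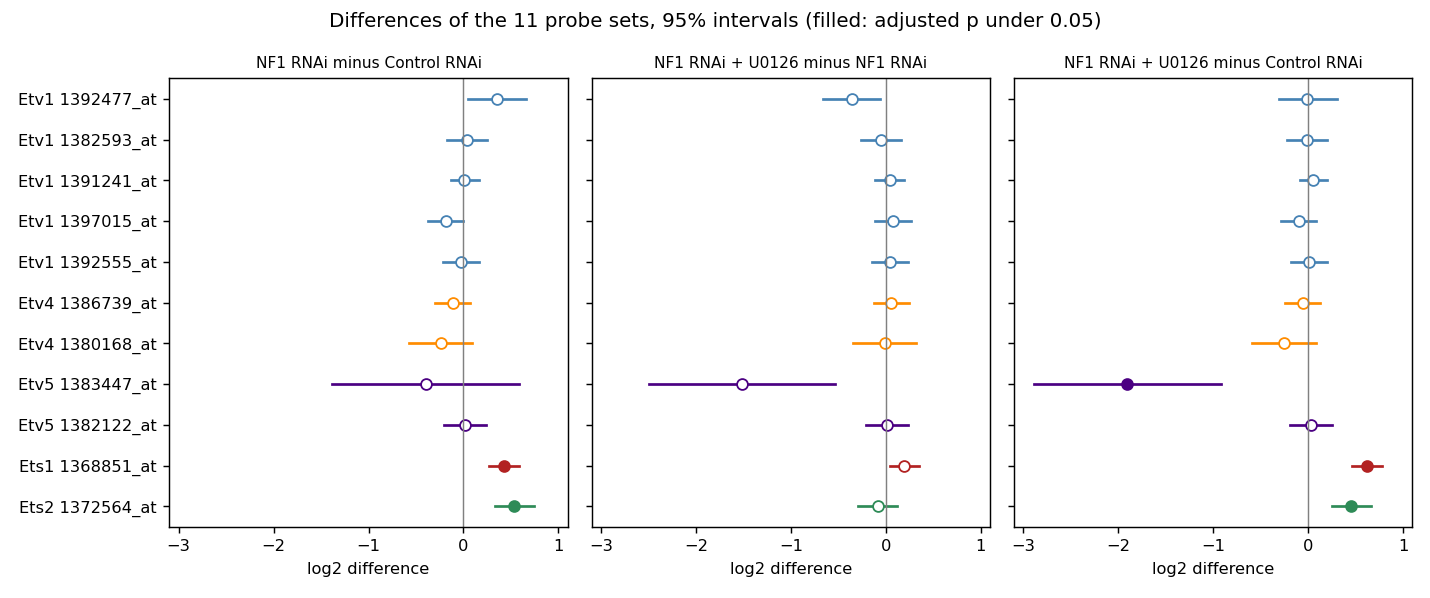
Log2 differences (x axis) of the 11 probe sets in the 3 comparisons, with 95% intervals from limma; filled points have an adjusted p under 0.05. Ets1 and Ets2 are filled on the right in both comparisons with Control RNAi, Etv5 on 1383447_at is filled on the left at −1.91 against Control RNAi, and the dim probe sets lie around 0.

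Etv5 was next set beside other genes that MEK and ERK induce, a list of 14 of which 12 were measured, each on its brightest probe set. With the inhibitor 7 fell and 1 rose relative to NF1 RNAi (median −0.97), where 12.4% of named genes were called (5.94% higher and 6.44% lower) and their median difference was 0.02. Without Control RNAi replicate 1 these counts were 8 and 1. The largest falls were in Egr1, an immediate-early zinc finger factor (−3.56 ± 0.44, limma adjusted p = 0.00121), Dusp6, which dephosphorylates ERK (−3.29 ± 0.39), Ccnd1, cyclin D1 (−2.42 ± 0.24), and Phlda1 (−1.85 ± 0.24). The difference of Etv5, −1.51, was close to that of the ERK pathway inhibitor Spry2 (−1.41). Epha4, an Eph receptor, was the one that rose (1.19, limma adjusted p = 0.0312). Spry1, another Sprouty, was at −0.97 and was not called (limma adjusted p = 0.214).

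In NF1 RNAi against Control RNAi the same list had 1 rise and 1 fall, with a median of 0.02, where 24.6% of named genes were called (12.1% higher and 12.4% lower). Dusp5, a nuclear ERK phosphatase, rose by 1.40 ± 0.23 and Epha2 fell by 0.67 ± 0.15. Ccnd1 was at 0.75 and just missed the threshold (limma adjusted p = 0.0513). Its other probe sets were at 0.77, which was called, and 0.70, which was not. Egr1 went the other way, at −1.14, and was not called (limma adjusted p = 0.108). Without Control RNAi replicate 1 the counts were 3 and 1. In NF1 RNAi + U0126 against Control RNAi 8 fell and 1 rose, led by Egr1 (−4.70 ± 0.44) and Dusp6 (−3.14 ± 0.39), where 33.5% of named genes were called (16.6% higher and 16.9% lower). Control RNAi replicate 1 was the highest of all 9 for several genes of the list as well as for Etv5: log2 values for replicates 1, 2 and 3 of Control RNAi were 11.26, 9.83 and 9.05 for Egr1, 10.62, 9.22 and 8.88 for Dusp6, 8.27, 6.76 and 6.35 for Spry1, and 7.97, 6.17 and 5.91 for Etv5. The list did not go 1 way in that array, which was the lowest of all 9 for Dusp5 (7.34, 8.06 and 7.94) and Epha4 (7.93, 8.34 and 8.92). The part of that array's other differences in the Etv5 values was not tested.

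**Figure D3:**
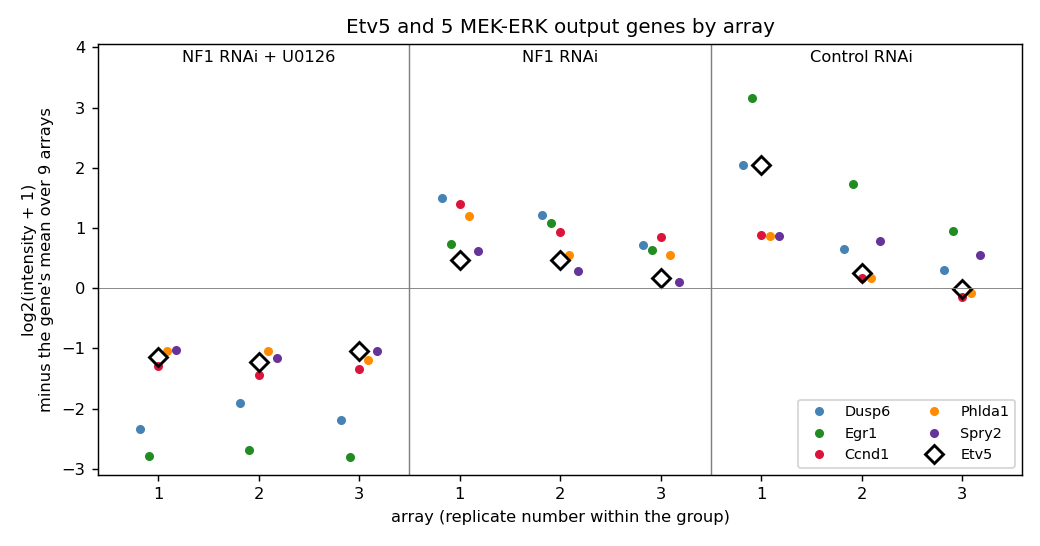
Log2(intensity + 1) of Etv5 on 1383447_at (diamonds) and of Dusp6, Egr1, Ccnd1, Phlda1 and Spry2 (points, set side by side within an array), each minus its own mean over the 9 arrays (y axis), by array (x axis). All 6 genes are below their mean in the NF1 RNAi + U0126 arrays, and Etv5, Egr1 and Dusp6 are highest in Control RNAi replicate 1.

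By the smallest root mean square difference between mean-centred log2 values over the 9 arrays, the named genes most like Etv5 among 9903 searched were Sash1 (0.27), which encodes an adaptor with SAM and SH3 domains, Lef1 (0.27), the transcription factor of Wnt signalling, and Ccne2 (0.29), cyclin E2. Sash1 had log2 values of 9.73, 9.95 and 9.96 in NF1 RNAi + U0126 cells, 11.51, 11.38 and 11.30 in NF1 RNAi cells, and 12.31, 11.35 and 11.15 in Control RNAi cells. It shared with Etv5 both the low inhibitor-treated arrays and the high Control RNAi replicate 1. Over the 8 arrays without that one, the nearest were Sash1 (0.11), Pdlim7 (0.11), a PDZ and LIM domain protein gene, and Creb5 (0.12), a leucine zipper transcription factor gene. These likenesses are a description over few arrays.

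Other ETS family genes were read in the same way, each on its brightest probe set. Of 21 further family genes 18 were measured, and 5 of these (Erg, Elf5, Ehf, Spic and Spdef) were below log2 6 on all arrays. In NF1 RNAi against Control RNAi 2 of the 18 fell and none rose (11.1%, median 0.01), where 24.6% of named genes were called. Elk4, a ternary complex factor that works with Srf and whose protein ERK activates, fell by 1.27 ± 0.08 (8.84 ± 0.13 in NF1 RNAi and 10.10 ± 0.07 in Control RNAi cells, SD, n = 3 each, limma adjusted p = 3.08e-05), and its arrays did not overlap. Of its 2 other probe sets, 1 was called with −1.17 and the other differed by −0.13. Gabpa, the DNA-binding subunit of GA-binding protein, fell by 0.32 ± 0.07.

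With the inhibitor, relative to NF1 RNAi, 1 of the 18 fell and 1 rose (11.1%, median 0.04, against 12.4% of named genes). The counts were 2 and 1 without Control RNAi replicate 1, the added fall being Gabpa (−0.24, limma adjusted p = 0.0445). Erf and Etv3 encode transcriptional repressors of the same subfamily. Erf, which ERK phosphorylates and drives out of the nucleus, fell by 0.49 ± 0.06 (9.58 ± 0.04 in NF1 RNAi + U0126 and 10.06 ± 0.03 in NF1 RNAi cells, SD, n = 3 each, limma adjusted p = 0.000981). Etv3 rose by 0.40 ± 0.07 (limma adjusted p = 0.00944), and its other probe set differed by 0.29 without being called. Against Control RNAi, NF1 RNAi + U0126 cells had 3 falls and 1 rise: Elk4 (−1.45 ± 0.08), Erf (−0.59 ± 0.06), Gabpa (−0.56 ± 0.07) and Etv3 (0.58 ± 0.07). That is 22.2% of the 18, against 33.5% of named genes. Elk4 thus stayed low with the inhibitor, at −0.19 from NF1 RNAi cells (limma adjusted p = 0.207). With so few genes, the called shares alone do not set the family apart from named genes in any of the comparisons.

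**Figure D4:**
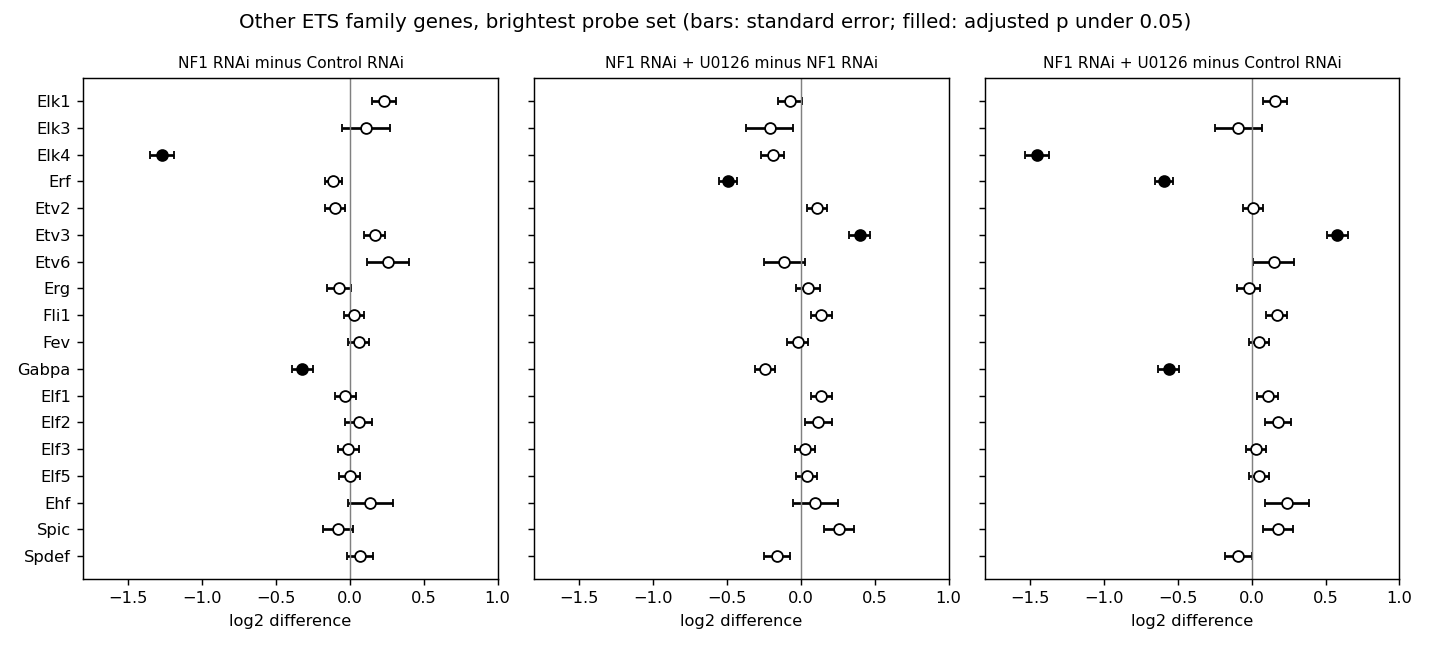
Log2 differences (x axis) of the brightest probe set of 18 other ETS family genes in the 3 comparisons; bars are standard errors of the limma fit and filled points have an adjusted p under 0.05. Elk4 and Gabpa are filled in both comparisons with Control RNAi, and Erf (lower) and Etv3 (higher) in both comparisons of NF1 RNAi + U0126.

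Genes for kinases, cofactors and turnover factors that act on ETS proteins were taken from a list of 15, of which 13 were measured. In NF1 RNAi against Control RNAi 4 rose and 2 fell (46.2%, median 0.04, against 24.6% of named genes). Atxn1l, which encodes a partner that stabilises Capicua, fell by 0.68 ± 0.10 (limma adjusted p = 0.00128), and Srf by 0.67 ± 0.08. Neither of the remaining Srf probe sets was called (0.03 and 0.16). Cul4a, a ubiquitin ligase scaffold, rose by 0.43 ± 0.09 and Map2k1, which encodes MEK1, by 0.26 ± 0.06. The remaining rises were Cop1 (0.25) and Crebbp (0.24), of which no other probe set was called. Those of Cop1 were at 0.10 and 0.34, and those of Crebbp lay between −0.07 and 0.09. Cic, which encodes Capicua itself, differed by −0.10 (limma adjusted p = 0.284).

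Relative to NF1 RNAi, 1 of the 13 rose with U0126 and none fell: Map2k2, which encodes the other target of the inhibitor, MEK2, rose by 0.43 ± 0.08 (limma adjusted p = 0.0122). That is 7.69% of the 13, against 12.4% of named genes. Cop1, the ubiquitin ligase that marks PEA3 proteins for destruction, rose by 0.42 ± 0.06 in NF1 RNAi + U0126 relative to Control RNAi cells, in which comparison 3 of the 13 rose and 3 fell (46.2%, against 33.5% of named genes). The counts were 2 and 3 without Control RNAi replicate 1. The remaining Cop1 probe sets differed by 0.14 and 0.36 without being called. Cop1 was already higher in NF1 RNAi than in Control RNAi cells (0.25, limma adjusted p = 0.0125). Its step from NF1 RNAi to NF1 RNAi + U0126 was 0.17 and was not called (limma adjusted p = 0.0964). Larger differences of NF1 RNAi + U0126 from Control RNAi were those of Atxn1l (−0.76), Srf (−0.63, its other probe sets at 0.07 and 0.08) and Cul4a (0.49).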

How the data were processed

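RNA from 9 cultures was measured on Affymetrix rat arrays, 1 per culture. The deposited values are intensities on a linear scale, from 5.62 to 25800.2, which the authors made with RMA, per the submitters' processing notes. RMA corrects background, normalises arrays to a common distribution and summarises probes, so shifts common to most transcripts are not seen. Software version and probe set definition were not given in the sources used here. Arrays give no read depth; their number limits the precision.

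Values were taken as log2(value + 1), which understates differences of dim probe sets. Of 31099 probe sets 57 controls were left out; GEO's platform annotation gave 20826 of the rest 1 gene, 436 several and 9780 none. Symbols were updated through the RefSeq gene table of GRCr8 (20758 by gene ID, 2 by accession, 66 kept). Coordinates of probe sets are not printed, because their genome build was not given in the sources used here. Each of 14217 named genes was read from the brightest of its probe sets over the 9 arrays. Promoters come from RefSeq, which held 3 of the 5 members in the table used (Etv1, Etv5 and Ets2).

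The 3 comparisons used limma 3.58.1 (R 4.3.3; group means, 9 arrays, 6 residual degrees of freedom, eBayes, Benjamini-Hochberg over all probe sets, adjusted p under 0.05, two-sided). Intervals are 95% and not adjusted for multiple tests. The fit was tested on simulated data with independent noise per array, without an outlying array or deviations shared by same-numbered arrays. The members, lists and tests were chosen with earlier results of these data known. Genes named from a list were up to 4 called members with the largest differences per comparison. Spry1, Spry2, Epha4, Cic, Crebbp and Cop1 elsewhere were added after their values were seen, as were the values given for uncalled genes. The patterns searched for likeness to a member were limited to members that spanned 1 on the log2 scale, which left Etv5, and to named genes with a mean of at least log2 6.

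Same-numbered arrays of different groups deviated together from their group means in all 9 pairs (r from 0.14 to 0.59 across probe sets, against −0.48 to 0.37 for different numbers), and no arrays held identical values. The pairing comes from the titles, which do not say what a number marks. The main fit leaves the number out. Alternatives were the replicate number as a block, log2 6 in at least 3 arrays as a filter (18638 left), median centring, quantile normalisation, only the 2 groups compared, an intensity trend, 1 probe set per gene, no pseudocount, a pseudocount of 16, each array left out, and the 3 arrays numbered 1 left out. List counts and likeness without Control RNAi replicate 1 were chosen after seeing the data. Figures were drawn with matplotlib 3.10.9.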

Additional observations from a re-analysis of the deposited data

How the results depend on the processing

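The calls of Ets1 and Ets2 in both comparisons with Control RNAi, and that of Etv5 in NF1 RNAi + U0126 against Control RNAi (−2.30 to −1.26, limma adjusted p up to 0.0368), held in all 19 alternatives. Etv5 in NF1 RNAi + U0126 against NF1 RNAi depended on the setting: differences ran from −1.62 to −1.14, with limma adjusted p from 6e-05 to 0.182. The count of called members there was 0, and it was 1 (Etv5) with the replicate block, with the filter at log2 6, with only the 2 groups compared and without the 3 arrays numbered 1. Etv5 passed the filter only through arrays without the inhibitor, so the call with it gives no separate support. Leaving out 1 array gave 0 to 1 in that comparison (1 without Control RNAi replicate 1 or 3), 2 to 3 in NF1 RNAi against Control RNAi and 3 throughout in NF1 RNAi + U0126 against Control RNAi. The replicate block changed no other call of a member. The call of Etv1 on 1392477_at in NF1 RNAi against Control RNAi appeared without Control RNAi replicate 1 and without the 3 arrays numbered 1.

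With 1 probe set per gene, fewer features were tested, and 3735, 1951 and 5048 of 14217 passed, where 6338, 3113 and 8710 of 31042 probe sets had (first the knockdown's effect against control, then the inhibitor's against knockdown alone, then both together against control). Leaving out 1 array gave 4550 to 6299, 1676 to 4140 and 6978 to 8923 probe sets in the same order. The low counts of the second comparison came without NF1 RNAi replicate 2 (1676), NF1 RNAi + U0126 replicate 2 (1897) and NF1 RNAi replicate 3 (2049). Signal near the low end limits what can be said of Etv1, Etv4 and the dimmer Etv5 probe set.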

Other observations

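Genes that have been described as ETS factor targets, many of them for matrix turnover and invasion, did not move one way. Of 19 listed 18 were measured. In NF1 RNAi against Control RNAi 3 rose and 2 fell (27.8%, against 24.6% of all named genes, with a median of 0.08 against 0.02). Without Control RNAi replicate 1, 3 rose and 1 fell, with Mmp14 no longer called (limma adjusted p = 0.0689 without that array and 0.0374 with it). Met, the receptor of hepatocyte growth factor, rose by 2.27 ± 0.26 (limma adjusted p = 0.000444) and Spp1, osteopontin, by 1.14 ± 0.19, while Timp1, a metalloprotease inhibitor, fell by 0.53 ± 0.05. Mmp13 rose by 0.49 ± 0.10 at the low end of the array (4.48 in NF1 RNAi and 3.98 in Control RNAi cells on the log2 scale).

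With U0126, relative to NF1 RNAi, 4 of the 18 fell and none rose on their brightest probe sets (22.2%, against 12.4% of named genes, with a median of −0.03 against 0.02). With Control RNAi replicate 1 left out, 5 fell and none rose. The 4 were Spp1 (−1.17 ± 0.19), Plaur, the urokinase receptor (−0.71 ± 0.11, limma adjusted p = 0.00328), Mmp13 (−0.60 ± 0.10) and Timp1 (−0.33 ± 0.05). The second Plaur probe set differed by 0.20 and was not called. Cxcr4 was not called on its brightest probe set (0.35). Another Cxcr4 probe set was called as higher (0.58, limma adjusted p = 0.00396), and the last was at 0.72 without being called. In NF1 RNAi + U0126 relative to Control RNAi cells 2 rose, Met (2.85 ± 0.26) and Cxcr4 (0.76 ± 0.14), and 3 fell, including Timp1 (−0.86 ± 0.05) and Mmp14 (−0.81 ± 0.13). That is 27.8% of the 18, against 33.5% of named genes. With that array left out, 3 rose and 3 fell. Spp1 was at −0.03 in that comparison.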
